A study of Drosophila melanogaster with 4 samples.

Results

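The genes described here carry the signals of the Toll, Imd, JNK and JAK-STAT pathways of Drosophila melanogaster. They were chosen by name, 38 genes in all, and 33 of them had a probe set whose platform annotation names that gene alone, among 10843 genes with such a probe set. The measured genes were 12 of 13 for Toll, 11 of 12 for Imd, 8 of 8 for JNK and 2 of 5 for JAK-STAT. For a gene with several probe sets the brightest by mean over all 4 arrays was taken. ModSP, Tak1, upd3, hop and Socs36E were not analysed here, so that JAK-STAT is represented by its receptor dome and its transcription factor Stat92E alone.

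RNA came from whole adult females of the y,w strain, which carries mutations for body and eye colour. All flies were kept without yeast for the 5 days after eclosion. Each female then received 0.1 µl of acetone on the body surface, either alone or carrying juvenile hormone III (JH III) at 187 mM, and was frozen 12 hours later. Each treatment had 2 samples, each a pool of 30 females measured on 1 Affymetrix DrosGenome1 array, so that a value is an average over all tissues of many flies and 2 arrays per group limit its precision. The yeast-free regime was meant to reduce the flies' own juvenile hormone, which was not measured here. The labels do not say whether the 2 pools of a treatment were treated separately, and the p-values measure only the spread between these arrays.

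In the Toll pathway, circulating serine proteases cleave the cytokine Spätzle, which binds the receptor Toll. The adaptors Myd88 and Tube and the kinase Pelle then bring about the loss of the inhibitor Cactus and free the NF-κB factors Dorsal and Dif. In the Imd pathway, bacterial peptidoglycan acts through the adaptors Imd and Fadd, the caspase Dredd and a kinase cascade on the NF-κB factor Relish. JNK signalling runs from the tumour necrosis factor homologue Eiger and other inputs through a chain of kinases to the factors Jun (Jra) and Fos (kay), and JAK-STAT signalling runs from the Unpaired cytokines through Domeless and a Janus kinase to Stat92E. Toll and Imd control antimicrobial peptide genes in the fat body, the insect counterpart of liver and adipose tissue, and JNK and JAK-STAT are known for their parts in wound, stress and haemocyte responses.

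The test used called no gene of the 4 pathways different between JH III and acetone females. That test was limma on log2(signal + 83), with p adjusted by Benjamini and Hochberg's method across 10474 probe sets and called under 0.05. It called 0 of the 29 members above the filter on low signal, where 0.13% of the 8455 genes tested were called, and the lowest adjusted p among the members was 0.675. With so few genes called, most lists of this size would give 0. The count does not show that the genes stayed the same, since the 95% intervals were wide. That of kay ran from -0.25 to 2.45 and that of cact from -1.62 to 0.04 on the log2 scale. At an unadjusted limma p under 0.05 stood 1 of the 29, the Toll factor Dif, against 7.5% of genes tested. Dif and the Imd inhibitor pirk passed the filter only through their JH III arrays, their acetone means lying below its level of 125.1, so that a difference was built into their selection and their p-values support nothing. With no filter, Dif and pirk stood under 0.05, 2 of 33 members (6.06%) against 6.7% of probe sets. An ordinary t-test on the filtered values called 0 and put Myd88, Dif and pirk under an unadjusted 0.05, 3 of 29 (10.3%) against 5.79% of probe sets. Of the 29, 10 did not overlap between the groups, which is 34.5% against 37.6% of genes tested. Of these 10, 6 were higher in both JH III arrays (background 21.7%) and 4 were lower in both (background 15.9%). All 3 shares lie slightly below those of genes at large.

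**Figure D1:**
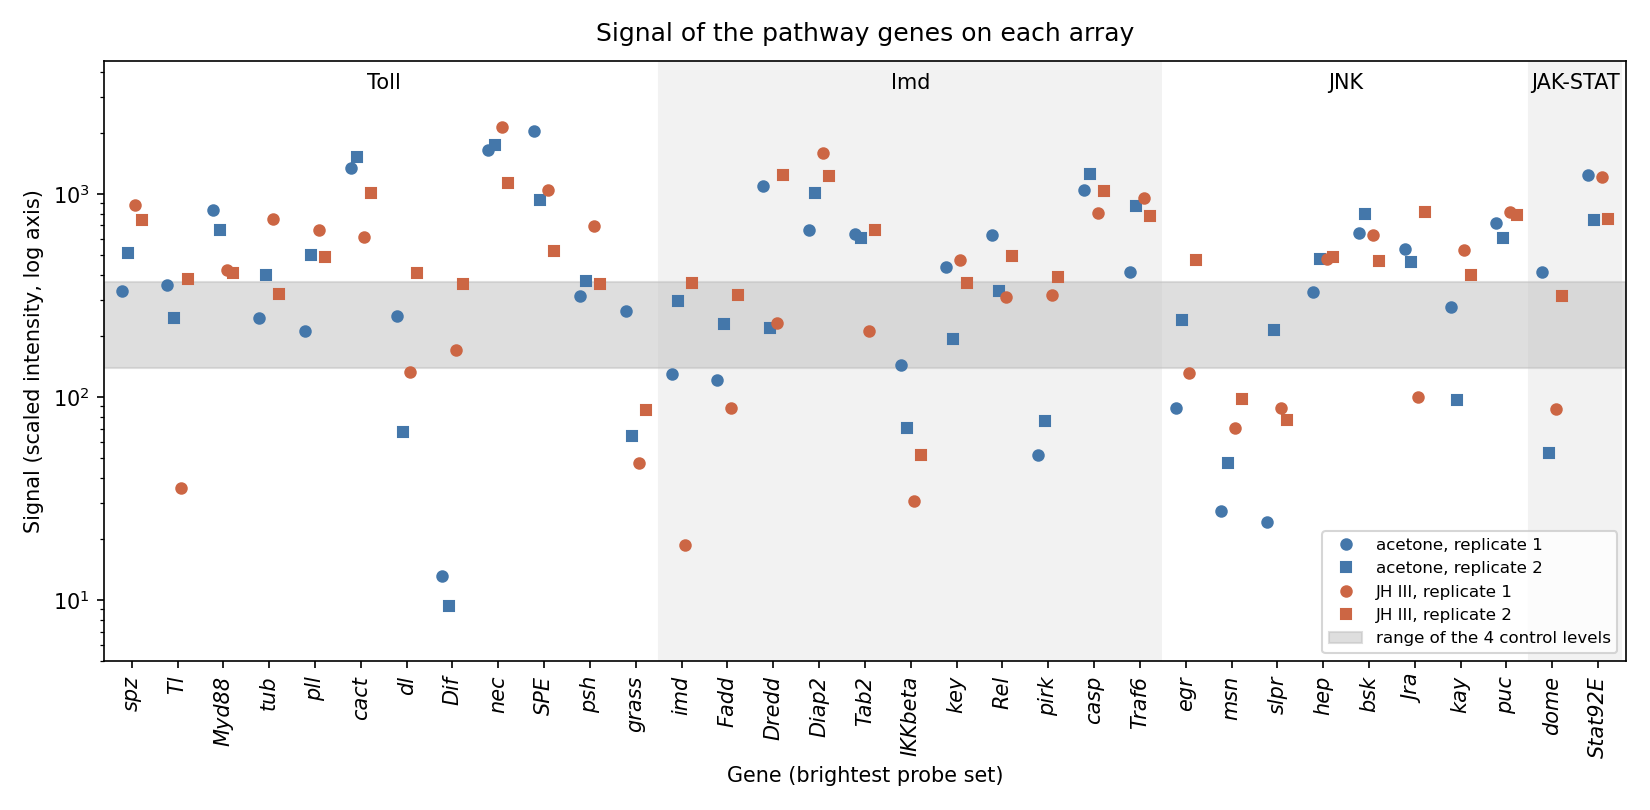
Signal of each of the 33 measured genes (brightest probe set, scaled intensity on a log axis) on the 2 acetone arrays (blue) and the 2 JH III arrays (orange), by pathway, with the grey band spanning the 4 arrays' control levels. In 15 genes every array lies above its own control level. In Dif and pirk both acetone arrays lie below the band and both JH III arrays higher, while in Dredd and dome the arrays of each treatment lie far apart. Levels of different genes come from different probes and are not comparable.

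Signal near background limited many of these genes. The control level of an array was the 95th percentile of 23 control probe sets for RNA that was not added. It was 139 and 295 on the acetone arrays and 369 and 240 on the JH III arrays, replicates 1 and 2 in that order here and below. In 15 of the 33 genes the signal was above this level on all 4 arrays, in 16 on some, and in 2, msn and slpr, on none. By pathway, 8 of 12 Toll genes were above it throughout, 3 of 11 Imd genes, 3 of 8 JNK genes and 1 of the 2 JAK-STAT genes. The filter left grass, IKKbeta, msn and slpr without a test.

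The arrays also differed in correlation, hybridisation and RNA quality. JH III replicate 1 correlated with the other arrays at 0.728 to 0.737 across probe sets, against 0.835 to 0.863 among the rest, and its added hybridisation controls had a geometric mean signal of 54170 against 7794 to 22915. For the control gene GAPDH, the 3' to 5' signal ratio, a sign of RNA and labelling quality, was 15.5 and 10.2 in acetone and 2.32 and 5.75 with JH III. Acetone replicate 1 was on another chip lot than the remaining 3 arrays. The yolk protein genes Yp1, Yp2 and Yp3 and the oocyte gene osk were above the control level on all 4 arrays, as was 1 of 7 male markers, Mst84Dc. Another 2 male markers, Acp26Aa and dj, were above it on no array, and the rest on some. Of 8 ovary markers, 3 (osk among them) were above it on all 4 arrays and 1, bam, on none. Both acetone arrays had higher GAPDH ratios than both JH III arrays, and higher ratios of eIF-4a (74.95 and 46.8 against 18.3 and 18.9). Those of actin overlapped (35.6 and 14.2 against 3.40 and 16.7). The GAPDH and eIF-4a differences and the treatment cannot be told apart.

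The upstream part of the Toll pathway, its ligand and the proteases that process it, held genes on both sides of the acetone level. spz, which encodes the Toll ligand Spätzle, had signals of 331 and 510 in acetone and 885 and 742 with JH III. The JH III arrays were both higher, by 0.85 ± 0.50 on the log2 scale (SE, limma adjusted p = 0.767). SPE, the protease that cleaves Spätzle, read 2038 and 939 in acetone and 1047 and 525 with JH III. The groups overlapped, and the difference was -0.83 ± 0.43 (SE, limma adjusted p = 0.71). It was -0.30 without acetone replicate 1 and -0.38 without JH III replicate 2. Without acetone replicate 2 it was -1.36, and without JH III replicate 1 it was -1.28. psh, a protease activated by microbial proteases, read 316 and 371 against 694 and 360, high on JH III replicate 1 only. For nec, the serpin that restrains this cascade, acetone read 1647 and 1743 and JH III 2132 and 1128, with the acetone arrays between those of JH III. grass, a protease that acts after microbial recognition, was above its control level on acetone replicate 1 only (265, with 64.6, 47.6 and 86.3 on the others).

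At the receptor and its adaptors the arrays of a group disagreed in most genes. Tl, the Toll receptor itself, read 357 and 246 in acetone and 35.5 and 382 with JH III, so that JH III replicate 1 lay far below the rest and the log2 difference (-0.70 ± 0.76 SE) turned to 0.29 without that array. Myd88 read 837 and 665 in acetone and 422 and 407 with JH III. It was lower in both JH III arrays, by 0.74 on the log2 scale (a difference of -0.74 ± 0.51 SE, limma adjusted p = 0.773). tub, its partner adaptor, read 245 and 401 against 755 and 323, and pll, the kinase, 212 and 502 against 666 and 488. Both overlapped between the groups. The second probe set of pll read 431 and 437 against 452 and 519, higher in both JH III arrays, with a difference of 0.13 against 0.65 for the brightest.

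The inhibitor of the Toll pathway was above the control level on all 4 arrays, and its NF-κB factors were not. cact, whose product holds the factors in the cytoplasm, read 1346 and 1521 in acetone and 612 and 1016 with JH III. It was lower in both JH III arrays, and the difference of -0.79 ± 0.42 did not pass (SE, limma adjusted p = 0.71). Without JH III replicate 1 it was -0.46, and without JH III replicate 2 it was -1.12. Dif, the factor that drives antifungal responses in adults, read 13.1 and 9.31 in acetone, under the control level on both arrays, and 171 and 360 with JH III, above it on 1 of the 2. Taken against the acetone control levels, the mean log2 signal of Dif over both JH III arrays was higher by 1.22-fold. The gene had a limma unadjusted p of 0.0465 (adjusted p = 0.675), having passed the filter through JH III alone. The fold is no lower limit, since JH III replicate 1 was below its own control level. Without JH III replicate 2, Dif was below the control level in both groups. The fitted log2 difference of Dif depended on the pseudocount, at 4.37 with 1, 1.83 with 83 and 0.94 with 256. With an array left out, the difference of Dif at the pseudocount of 83 ranged from 1.43 to 2.24, for the same gene selected through JH III. dl, the second such factor and best known for patterning the embryo, read 250 and 67.5 against 133 and 408, so that the groups overlapped.

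In the Imd pathway, the adaptors, the caspase and the ubiquitin ligase showed no common direction. imd read 130 and 297 in acetone and 18.7 and 366 with JH III, and its second probe set had the opposite sign (-0.41 for the brightest, 0.56 for the other). Fadd read 122 and 228 against 88.0 and 319, again lowest and highest in the 2 JH III arrays. Dredd, the caspase that cleaves Imd and Relish, read 1100 and 218 in acetone and 231 and 1246 with JH III. Its replicates lay about 2 log2 units apart in each group (1.97 and 2.08) while the group means differed by 0.11. Diap2, the ubiquitin ligase of the pathway, read 664 and 1008 in acetone and 1590 and 1222 with JH III. It was higher in both JH III arrays, by 0.71 ± 0.41 on the log2 scale (SE, limma adjusted p = 0.763). With an array left out this ranged from 0.44 to 0.98. Traf6, an adaptor grouped here with Imd and also linked to Toll and JNK signalling, read 415 and 871 against 950 and 777.

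At the kinase stage of Imd and its factor Relish, the groups overlapped in Tab2, key and Rel but not in IKKbeta. Tab2, the partner of the kinase Tak1, read 633 and 609 in acetone and 213 and 665 with JH III, so that only JH III replicate 1 was low. key, the regulatory subunit of the IKK complex, read 435 and 194 against 475 and 366. IKKbeta, its catalytic subunit, read 144 and 70.4 against 30.8 and 52.0 and was above the control level on acetone replicate 1 alone. It was lower in both JH III arrays, while its second probe set, below the control level throughout, had the opposite sign (0.24 against -0.59). Rel, which encodes Relish, read 628 and 333 in acetone and 310 and 492 with JH III, a difference of -0.19 with a 95% interval from -1.35 to 0.96.

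The inhibitors of Imd measured were pirk and casp, with pirk higher and casp lower in both JH III arrays, a separation that 37.6% of genes tested showed in one direction or the other. pirk encodes a protein that is induced by the Imd pathway and dampens it by acting on its receptors. It read 51.7 and 76.2 in acetone, under the control level on both arrays, and 320 and 392 with JH III, above it on 1 of the 2. The mean log2 signal over both JH III arrays exceeded the acetone control levels by 1.75-fold. The gene had a limma unadjusted p of 0.0518 (adjusted p = 0.694), having passed the filter through JH III alone. This fold too is no lower limit, since JH III replicate 2 was the only array above its control level. The fitted log2 difference of pirk was 1.58, with 2.48 and 0.93 at pseudocounts of 1 and 256. On the scale of the main fit the replicates lay 0.24 log2 units apart in each group. Both acetone signals were smaller than the pseudocount of that fit, which narrows their gap, so the closeness carries no weight. Among the 3 arrays of 1 chip lot the difference was 1.46, for the same gene selected through JH III. casp, which keeps Relish from being cleaved, read 1041 and 1249 in acetone and 806 and 1040 with JH III, a separation of 1041 against 1040, and its difference of -0.29 had a 95% interval from -1.13 to 0.54.

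Of the JNK genes, kay, puc and msn were higher and bsk was lower in both JH III arrays. msn had no test, and of the 6 JNK genes tested 2 were higher and 1 lower in both. Among all genes tested, 21.7% were higher and 15.9% lower in both. egr, the ligand, read 88.2 and 239 in acetone, below the control level on both arrays, and 132 and 473 with JH III, above it on replicate 2 alone. The groups overlapped (limma adjusted p = 0.901), and without JH III replicate 2 the difference turned from 0.56 to -0.13. The kinases hep and bsk read 329 and 481 against 476 and 488, and 641 and 793 against 631 and 465. bsk, the JNK itself, was lower in both JH III arrays, but by a margin of 641 against 631, and the fitted difference was -0.35 ± 0.49 (SE, limma adjusted p = 0.904). The second probe set of hep had the opposite sign (-0.0977 against 0.23). msn and slpr, kinases upstream of bsk, stayed below the control level throughout. msn read 27.3 and 47.6 in acetone and 70.6 and 97.3 with JH III, and slpr 24.3 and 214 against 88.7 and 77.4.

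Jra, the Jun of flies, read 533 and 462 in acetone and 99.7 and 811 with JH III. Its JH III replicates lay 2.29 log2 units apart, the widest gap of the 33 genes, and without JH III replicate 1 the difference turned from -0.52 to 0.63. kay, the Fos of flies, read 279 and 96.4 in acetone and 530 and 401 with JH III. It was higher in both JH III arrays, by 1.10 ± 0.68 on the log2 scale (SE, limma adjusted p = 0.767). With an array left out this ranged from 0.59 to 1.60, and the second probe set of kay gave 0.40 with overlapping groups. puc, the phosphatase that JNK signalling induces and that limits it, is often used as a readout of the pathway. It read 716 and 608 in acetone and 812 and 785 with JH III, a difference of 0.25 with a 95% interval from -0.68 to 1.17.

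The JAK-STAT genes had groups that overlapped, with differences near 0 for the brightest probe set of each. dome, the receptor, read 415 and 52.9 in acetone and 86.9 and 314 with JH III, a log2 difference of -0.0026 with a 95% interval from -1.62 to 1.62. Stat92E read 1240 and 745 in acetone and 1209 and 750 with JH III. In each treatment its replicate 1 was the higher, and the difference of -0.01 had a 95% interval from -0.87 to 0.85. The second probe set of dome gave -0.48, and that of Stat92E, above the control level on 1 array (410 on JH III replicate 2), gave 0.55.

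**Figure D2:**
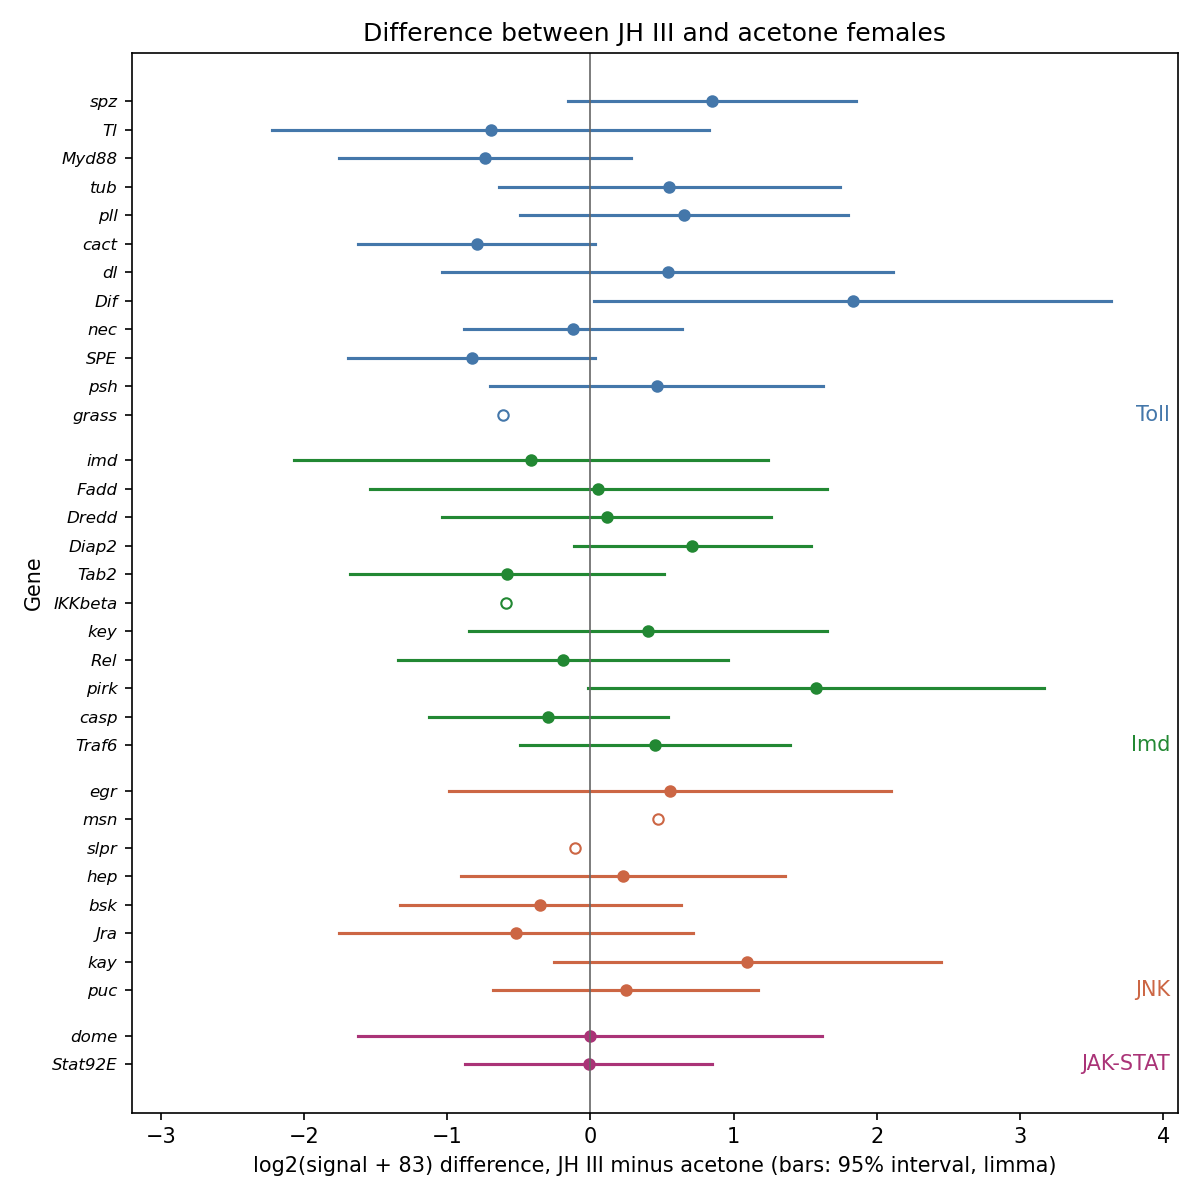
Difference in log2(signal + 83), JH III minus acetone, for the 33 measured genes by pathway. Bars are 95% intervals from limma, and open circles are the 4 genes left out by the filter, which have no test. Of 29 intervals, 28 span 0. That of Dif, which passed the filter only through its JH III arrays, runs from 0.03 to 3.64 before any adjustment for the number of tests.

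Set side by side, the pathways had median log2 differences of 0.17 for Toll (12 genes), 0.06 for Imd (11), 0.24 for JNK (8) and -0.01 for JAK-STAT (2), with all genes at 0.12 (10843). These medians include the 4 genes of low signal. Without grass, the low-signal Toll gene, the Toll median was 0.46. Among measured genes, 6 of 12, 6 of 11, 5 of 8 and 0 of 2 had a difference above 0, in the same order, which comes to 51.5% of the 33 against 57.8% of all genes. The tested Toll genes had 2 with both JH III arrays higher and 2 with both lower, the Imd genes 2 and 1, the JNK genes 2 and 1, and the JAK-STAT genes 0 and 0, of 11, 10, 6 and 2 genes, beside 21.7% of all genes tested higher and 15.9% lower. None of these differences between pathways was tested.

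The pathway medians moved with the arrays. The Toll median level was 8.67 and 9.06 in acetone and 9.50 and 8.94 with JH III, and the Imd median 9.02 and 8.57 against 8.62 and 9.17. For JNK it was 8.59 and 8.71 against 8.44 and 9.11, and for JAK-STAT 9.66 and 8.39 against 8.87 and 9.17. In none of the 4 did both arrays of one treatment lie above both of the other. Without JH III replicate 1 the median differences were 0.04, 0.32, 0.42 and 0.14 for Toll, Imd, JNK and JAK-STAT. Within the chip lot that holds 3 arrays, that is without acetone replicate 1, they were 0.09, -0.02, 0.05 and 0.63.

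**Figure D3:**
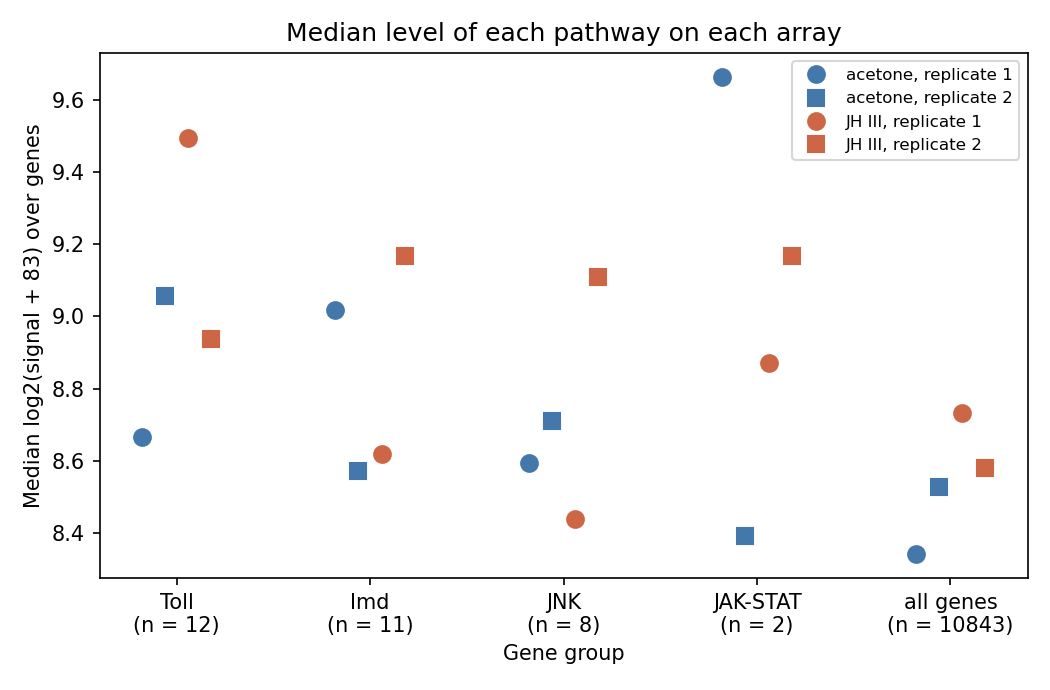
Median log2(signal + 83) over the measured genes of each pathway and over all genes, on each of the 4 arrays (acetone blue, JH III orange, circles replicate 1, squares replicate 2). Acetone and JH III points overlap in all 4 pathways, whereas for all genes the JH III arrays (8.73 and 8.58) lie above the acetone arrays (8.34 and 8.53).

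The balance of directions depended on the scaling. Centring each array on its median shifted the median difference of all genes by -0.24, and quantile normalization shifted it by -0.12. After centring the pathway medians were -0.065 for Toll, -0.18 for Imd, -0.0004 for JNK and -0.25 for JAK-STAT, and 14 of the 33 pathway genes (42.4%) had a difference above 0, and so did 42% of all genes. After quantile normalization the numbers were 18 (54.5%) and 50%.

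For most of these genes the gap between replicates was larger than the difference between treatments. In 23 of the 33 (69.7%) the larger of the within-group gaps exceeded the treatment difference, against 76.4% of all genes. The exceptions were spz, Myd88, cact, Dif, Diap2, IKKbeta, pirk, msn, kay and puc. The median gap between replicates was 0.56 log2 units in acetone and 0.55 with JH III, against 0.46 and 0.57 for all genes. JH III replicate 2 gave the highest of the 4 signals in 12 of the 33 genes (36.4%, against 22.9% of all genes), and the lowest in 4 (12.1%, against 19.1%). JH III replicate 1 gave the highest in 10 (30.3%, against 36.5%) and the lowest in 10 (30.3%, against 24.7%), and acetone replicate 1 the lowest in 11 (33.3%, against 34.1%).

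**Figure D4:**
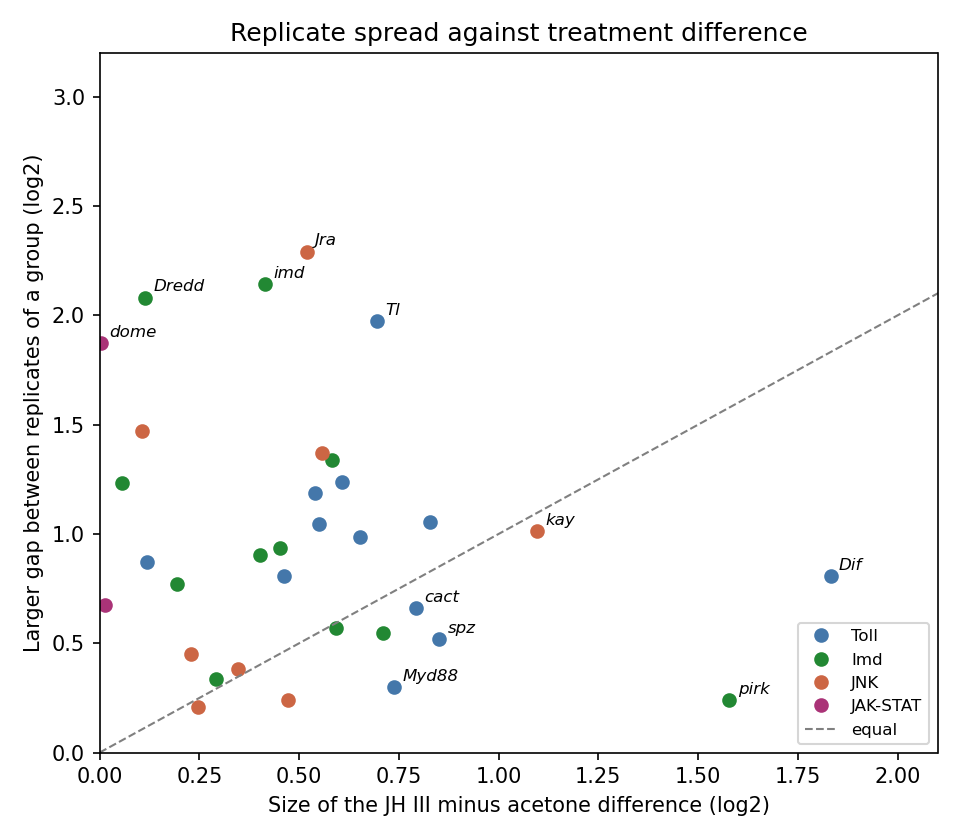
The larger gap between replicates of a group (vertical, log2) against the size of the JH III minus acetone difference (horizontal, log2) for the 33 genes, coloured by pathway, with a dashed line where they are equal. In the 10 genes below the line the treatment difference is the larger, with Dif (1.83) and pirk (1.58) farthest to the right, and Jra, imd, Dredd and Tl are at the top.

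No further gene listed for the same pathways was called either. Of 104 listed, 78 were measured and 64 passed the filter, and limma called 0 of these. The median difference was 0.16 for the 26 measured Toll genes, 0.01 for 19 of Imd, 0.10 for 17 of JNK and 0.21 for 16 of JAK-STAT. In 22 of the 64 (34.4%) the groups did not overlap, 14 with both JH III arrays higher and 8 with both lower, against 37.6% of all genes tested, 21.7% higher and 15.9% lower. At an unadjusted limma p under 0.05, where 7.5% of genes tested stood, was 1 of the 64, vir-1, a gene induced by virus infection through JAK-STAT. vir-1 read 11339 and 11550 in acetone and 5299 and 7969 with JH III, lower in both JH III arrays. Its fitted difference was -0.81 ± 0.365 (SE, limma unadjusted p = 0.0302, adjusted p = 0.636), and a second probe set of vir-1 gave 0.18 with overlapping groups.

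Markers of tissues in which these pathways act varied between arrays as well. In whole flies, fewer cells of a type and less RNA per cell cannot be told apart. Of 7 haemocyte markers measured, Pxn and crq were above the control level on all 4 arrays and eater, NimC1 and NimC4 on none, and their summed signal was 1869 and 2716 in acetone and 2475 and 1688 with JH III. The summed ovary markers (8 measured) were 5236 and 5184 against 5325 and 7950, and the fat body and female markers (6) 101721 and 84940 against 60977 and 102930. The 3 muscle markers measured summed to 9843 and 5043 against 2791 and 4807, and the 3 gut markers to 114428 and 56291 against 38707 and 74559. The 7 male markers measured summed to 902 and 1530 against 2818 and 1576. The muscle sum was lower in both JH III arrays, the ovary and male sums were higher in both, and the rest overlapped. Single markers differed from their sums, which the brightest genes dominate. For the gut maltase gene Mal-A1 the groups did not overlap, as in 37.6% of genes tested, with a log2 difference of -1.46 (limma adjusted p = 0.111). Mal-A1 read 11375 and 3030 in acetone and 1724 and 2536 with JH III, so that acetone replicate 1 lay far above the rest. All 3 gut genes had differences below 0, with a median of -0.96, and so did all 3 muscle genes, with a median of -0.94. Outside the haemocyte list, the other markers without overlap were Yp3 (-0.42) and Mlc1 (-0.94), lower with JH III. Those higher with JH III were otu (1.32), bcd (0.88) and Acp70A (1.21). The haemocyte genes Hml and srp, also without overlap, went opposite ways, at -1.31 and 1.44 (limma adjusted p = 0.757 for each). Against the filter level of 125.1, Hml had a JH III mean of 107 and srp an acetone mean of 88.2. Each passed through its brighter group alone, so that a difference was built into their selection and their p-values support nothing. srp read 164 and 12.6 in acetone and 521 and 207 with JH III. On replicate 2 of each treatment srp was below the control level. Hml was under the control level on both JH III arrays (124 and 89.9). Its mean log2 signal in acetone exceeded the JH III control levels by 1.29-fold. Of the 7 haemocyte markers, 4 had differences above 0 and 3 below, with a median of 0.02. The part of these markers in the pathway values was not tested.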

How the data were processed

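Expression was measured on 4 Affymetrix DrosGenome1 arrays. The authors deposited a linear intensity (signal) for each probe set on each array. Its 2% trimmed mean was about 500.1 on every array, the form of signals scaled to a common target. The sources used here do not give the summarising software. Extraction used Trizol and chloroform, per the labels' protocols. Groups and replicate numbers came from the sample titles.

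Of 14010 probe sets, 44 were controls, 12442 had 1 platform symbol, 327 several and 1197 none. All 33 measured members matched a RefSeq gene table by Entrez number. Values were analysed as log2(signal + 83), 83 being the 25th percentile of all values. The lowest 25% of probe sets by mean signal (below 125.1) were left out. limma 3.58.1 in R 4.3.3 (lmFit, eBayes with a variance trend, two-sided) compared JH III with acetone over 10474 probe sets. The fit had 2 residual and 67.4 moderated degrees of freedom, so most of the spread was borrowed from other probe sets. With 2 arrays against 2, an exact two-sided permutation test cannot give a p below 0.333 and was not used.

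A fold against the control level was computed where a group was below that level on both arrays. It set the brighter group's mean log2 signal against the dim group's control levels, or the dim group's signals where higher. Such a fold is no lower limit where an array of the brighter group was below its own control level. Medians over genes carry no test. The members, the further lists and the rule for naming genes were chosen with earlier results of these data known. The rule asks for values on every array for members that do not overlap, have an unadjusted p under 0.05 or come first in a role; here they are printed for all members. Further genes are named at an unadjusted p under 0.05. Alternatives were pseudocounts of 1 and 256, quantile normalization, median centring, no filter or 50%, eBayes without a trend, an ordinary t-test, a replicate block, each gene's probe sets averaged, and each array left out. Tables and plots were made in Python 3.11.15 (pandas 2.3.3, numpy 2.4.6, matplotlib 3.10.9).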

Additional observations from a re-analysis of the deposited data

How the results depend on the processing

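The count of 0 pathway genes called held under all 14 alternatives, with a lowest adjusted p of 0.245 (cact, without JH III replicate 2). Few probe sets of any kind were called in these fits, so that 0 among the pathway genes says little about them. Over the whole array 17 probe sets were called (0.162% of 10474). There were 13 and 12 with pseudocounts of 1 and 256, 2 under quantile normalization, median centring, no filter and a 50% filter alike, 0 without a trend or by the t-test, and 3 to 36 with an array left out. Same-numbered replicates deviated with a correlation of -0.11 across probe sets, which gives no sign that the numbers pair the arrays. The replicate block gave 2 calls, and the crossed pairing, chosen after seeing the data, gave 109, with 0 pathway genes in either. Pathway medians with an array left out ranged from -0.06 to 0.13 for Toll, -0.47 to 0.32 for Imd, 0.05 to 0.52 for JNK and -0.65 to 0.63 for JAK-STAT. The Imd median was 0.45 over the 3 genes above the control level on all arrays. With genes near background set at their fold against the control level or at 0, the medians were 0.15, 0.00, 0.11 and -0.01. That setting was chosen after seeing the data.

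Of 304 member values under alternatives that kept all arrays, 10 turned direction, all from differences that had not passed. They were nec (0.083), Fadd (-0.13) and Stat92E (0.022) after quantile normalization, Fadd (-0.18), Dredd (-0.12) and hep (-0.0096) after median centring, slpr (0.19) and dome (0.15) with a pseudocount of 1, and imd (0.072) and Stat92E (0.27) with the mean over probe sets. With an array left out, 23 of 132 turned. The lowest and highest values of these 16 genes were, in log2 units, Tl -1.68 to 0.29, dl -0.0535 to 1.13, nec -0.55 to 0.32, grass -1.23 to 0.0110, imd -1.48 to 0.66, Fadd -0.56 to 0.67, Dredd -0.93 to 1.15, Tab2 -1.25 to 0.0875. For the others they were key -0.0493 to 0.85, Rel -0.58 to 0.19, Traf6 -0.0180 to 0.92, egr -0.13 to 1.24, slpr -0.84 to 0.63, Jra -1.66 to 0.63, dome -0.94 to 0.93 and Stat92E -0.35 to 0.33. The causes were not tested.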
